A study of Mus musculus with 6 samples.

Results

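The genes described here are 10 immediate early genes of the AP-1, Egr and Ier families, Egr1, Egr2, Fos, Fosb, Fosl1, Fosl2, Jun, Jund, Ier2 and Ier3. They were chosen by symbol, and all 10 were found among the 53927 gene symbols of the deposited tables. Their RNA was measured by RNA-seq in embryonic stem cells (ESCs) of the mouse kept in either of 2 N2B27 media, which are free of serum, with 3 libraries per medium. Both media contained PD0325901, a MEK inhibitor, at 1 µM. The 2i medium added CHIR99021, which inhibits GSK3 alpha and GSK3 beta, at 3 µM, and the BRD0705/PD03 medium added BRD0705, a GSK3 alpha-selective inhibitor, at 8 µM. All samples are labelled wild type and E14, an established ESC line, whereas the growth protocol speaks of B6D2F1 ESCs derived on feeder cells in each medium, so which cells were sequenced is not settled. The protocol names gelatin-coated dishes for culture and feeders for derivation and expansion. The comparison asks how RNA of these genes differs between cells kept with GSK3 alpha inhibition and cells kept in 2i, with MEK inhibited in both. Cells were dissociated with trypsin before RNA extraction in all samples, per the labels' protocols.

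Immediate early genes are transcribed within minutes of a stimulus, without new protein synthesis, and their RNAs decay quickly. Growth factor signals pass through Ras, Raf, MEK and ERK to ternary complex factors that sit with SRF on CArG boxes of promoters such as those of Fos and Egr1. Fos and Jun proteins pair through leucine zippers to form AP-1. Fos proteins need a partner to bind DNA, while Jun proteins can also pair with themselves. Egr1 and Egr2 are zinc finger factors of GC-rich sites. PD0325901 acts on this cascade at MEK, and ERK activity itself was not measured here.

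Total counts ranged from 16968959 to 51180228 per library. The ESC markers Pou5f1 and Sox2 stood at 687 ± 6.29 and 289 ± 7.64 CPM (counts scaled to library size, SD, n = 3) in BRD0705/PD03 and at 765 ± 54.9 and 300.4 ± 14.8 CPM in 2i, and Pou5f1 was called lower. Shares over all 20422 genes tested, 30.1% called higher and 31.4% lower, stand beside the counts of the marker lists given here. Of 9 ESC markers 4 were higher and 4 lower, and none was at 0. Their summed level was 2972 to 3063 CPM in BRD0705/PD03 and 3561 to 3850 CPM in 2i. Nanog, Dppa5a and Esrrb, chosen after their values were seen, fell by 0.95, 1.09 and 0.64, and Zfp42 and Utf1, chosen likewise, rose by 1.15 and 1.41. Fibroblast (feeder) markers were also present, and none of the 20 in the list was at 0. Of them 18 were higher in BRD0705/PD03 and 1 lower, and their summed level was 2180 to 2902 CPM there and 1785 to 1840 CPM in 2i. Col1a1 stood at 142 ± 29.6 against 77.7 ± 1.96 CPM, Col3a1 at 297 ± 60.0 against 127 ± 0.402 CPM and Dcn at 55.7 ± 8.82 against 29.4 ± 2.55 CPM. Chosen after their values were seen, Sparc fell to 272 ± 30.6 from 350 ± 11.8 CPM. Fn1, chosen likewise, stood at 798 ± 55.8 and 810 ± 15.9 CPM and was not called. Both were the most abundant of the list in 2i and weigh most in its summed level there. In the endoderm list, 3 of 6 tested genes were higher and 1 lower, and the summed level of the list was 7.23 to 8.61 CPM against 5.85 to 6.23 CPM. Gata6, at 0.513 ± 0.0717 and 0.614 ± 0.148 CPM, was not called, and Sox17, at 0.261 ± 0.0694 and 0.416 ± 0.162 CPM, was below the filter. Chosen after their values were seen, the genes called higher were Foxa2 (2.53), Dab2 (1.01) and Pdgfra (0.52), which is also in the fibroblast list, and Gata4 fell by 0.83. Foxa2 passed the filter only through the BRD0705/PD03 libraries, so its call carries no weight. The part of these other cells in the results below was not tested, except where a value with a fibroblast covariate is given. In such bulk samples, a change in the number of cells of a type and a change in RNA per cell cannot be told apart.

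In BRD0705/PD03, RNA of 9 of the 10 genes was higher than in 2i, and Jund did not pass the test. Over all 20422 genes tested, 30.1% were called higher and 31.4% lower, so a call by itself is common in this comparison. Egr1, Egr2 and Fos rose by 2.19 ± 0.14, 2.05 ± 0.19 and 1.99 ± 0.08 on the log2 scale (log2 fold change ± standard error). Fosl1 rose by 1.82, Fosb by 1.45, Fosl2 by 0.88, Ier3 by 0.68, Ier2 by 0.50 and Jun by 0.30. The median over the 10 was 1.17, against 0.00 over all genes tested, where the quartiles were -0.40 and 0.41. A rise of 2-fold or more was found for 5 of the 10 genes, against 10.9% of all genes tested. For 9 genes the lowest BRD0705/PD03 value was above the highest 2i value, as it was for 32.4% of all genes tested, and 66.0% of all genes tested had groups that did not overlap in either direction.

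Fosl1 passed the filter on low counts only through the BRD0705/PD03 libraries, where it was high, so its call carries no weight. Without it, 8 of 9 genes were higher, 4 of 9 rose 2-fold or more, 8 of 9 had groups that did not overlap, and the median was 0.88. With the mean level of 5 fibroblast genes as a covariate, 4 of the 10 genes stayed called, and these were Egr1, Egr2, Fos and Fosb. Standard errors were 2.94 times larger in that fit at the median of all genes tested.

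**Figure D1:**
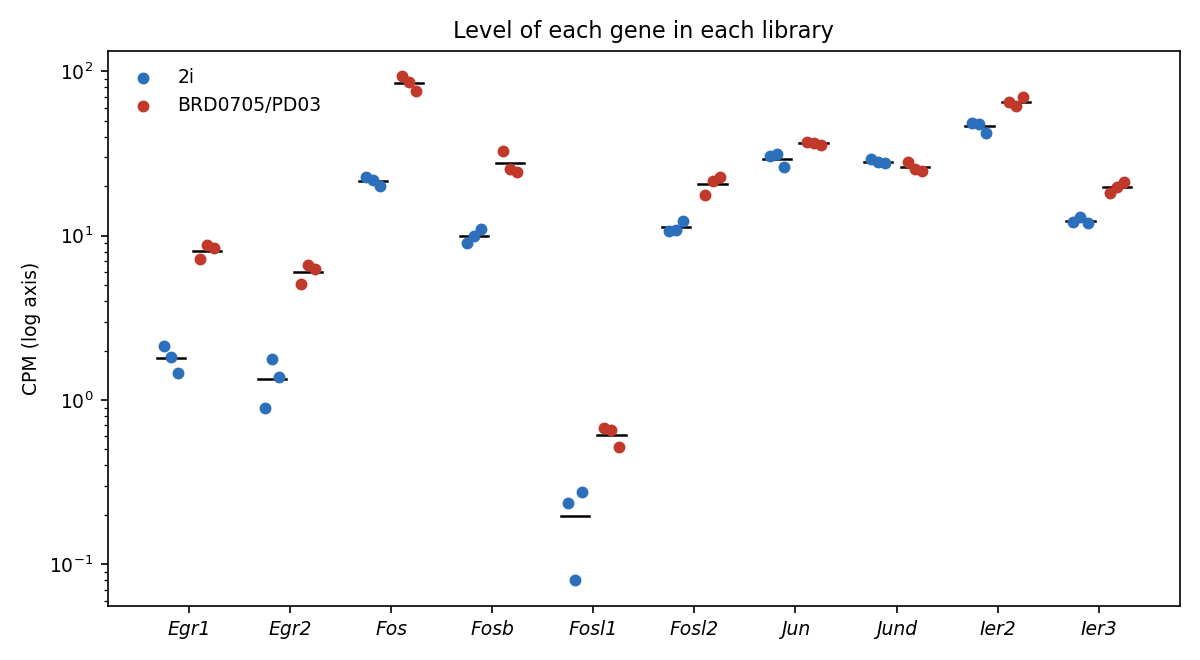
CPM on a log axis for each of the 10 genes, with 1 point per library (blue 2i, red BRD0705/PD03, n = 3 each) and a bar at the group mean. The red points lie above the blue ones for every gene but Jund, where the groups overlap.

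**Figure D2:**
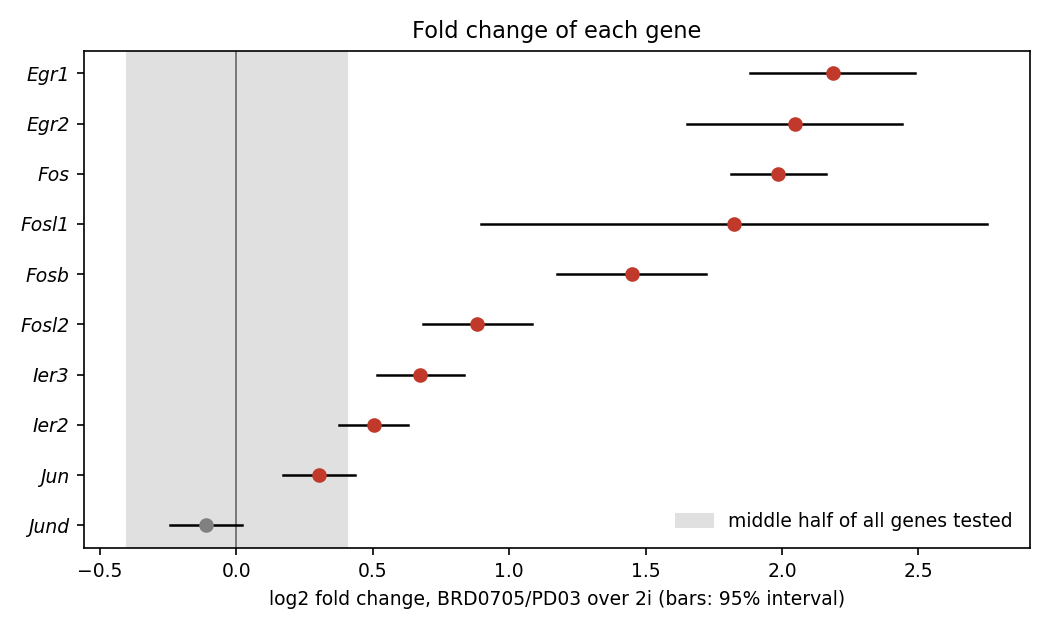
Log2 fold change of BRD0705/PD03 over 2i for each gene with its 95% interval, red where called higher and grey for Jund, which was not called. The shaded band spans the quartiles of all genes tested, -0.40 to 0.41, and the points of Jun and Jund lie inside it.

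The Egr genes had low levels and among the largest rises. Egr1 (chromosome 18, 34859823 to 34864984, plus strand, GRCm38), the best known sensor of ERK activity in the family, stood at 7.21, 8.75 and 8.39 CPM in BRD0705/PD03 replicates 1 to 3 and at 2.14, 1.82 and 1.46 CPM in 2i. The lowest BRD0705/PD03 library was thus well above the highest 2i library, a 4.55-fold difference in the fit (edgeR adjusted p = 1.6e-10). Larger log2 fold changes were found for 3.37% of all genes tested. Egr2 (chromosome 10, 67535475 to 67542188, plus strand), a factor of hindbrain and Schwann cell development, stood at 5.12, 6.65 and 6.25 CPM against 0.890, 1.78 and 1.38 CPM. The 2i values rest on 15, 89 and 35 counts and spread more, with a coefficient of variation of 32.9%, but the groups did not overlap (edgeR adjusted p = 4.2e-08). The sum of both genes was 14.1 ± 1.6 CPM in BRD0705/PD03 and 3.15 ± 0.39 CPM in 2i.

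Other genes of the Egr circuit did not all follow. Egr4, a related factor, had 59 counts over the BRD0705/PD03 group and 1 count over the 2i group, a ratio of 54.1 with an exact 95% interval of 9.33 to 2171 that covers counting error only, and it passed the filter only through the BRD0705/PD03 libraries. Egr3 was below the filter, with 35 and 24 counts. Nab2, a co-repressor of Egr proteins whose gene Egr1 is known to activate, went the other way and stood at 2.05 ± 0.14 against 8.23 ± 0.118 CPM (-2.00 ± 0.12, edgeR adjusted p = 5.4e-11). Nab1, the other co-repressor, stood at 13.8 ± 1.5 and 13.0 ± 0.781 CPM and was not called. Wt1, a zinc finger factor with Egr-like fingers, rose by 0.63. Of the 4 tested genes in this list 2 were higher and 1 lower, with a median of 0.36. Over all genes tested, the shares were 30.1% higher and 31.4% lower. Egr4 is 1 of the 2 higher genes and enters the median, but its call carries no weight because of the filter.

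Fos led the Fos family in level and had the largest fitted rise, though the wide interval of the scarce Fosl1 includes the change of Fos. Fos (chromosome 12, 85473890 to 85477273, plus strand), the founding AP-1 partner of Jun, stood at 93.7, 86.5 and 76.3 CPM in BRD0705/PD03 and at 22.9, 21.8 and 20.1 CPM in 2i. Both groups were tight around their means of 85.5 and 21.6 CPM, and the difference was 3.96-fold (edgeR adjusted p = 1.0e-09). Fosb (chromosome 7, 19302696 to 19310051, minus strand), a close paralog that is also induced early, stood at 32.6, 25.4 and 24.5 CPM against 9.08, 10.01 and 10.9 CPM. That is a 2.73-fold difference (edgeR adjusted p = 3.3e-06). Fos and Fosb were both highest in BRD0705/PD03 replicate 1.

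The Fos-related antigens Fosl1 and Fosl2, which lack the C-terminal transactivation domain of Fos and are typically induced later, were both less abundant than Fos. Fosl1 (chromosome 19, 5447547 to 5455946, plus strand) was nearly silent, at 0.678, 0.654 and 0.515 CPM in BRD0705/PD03 and 0.237, 0.0798 and 0.276 CPM in 2i. These values rest on 22, 18 and 21 counts against 4, 4 and 7 counts, and its log2 fold change had a 95% interval of 0.90 to 2.75. Without 2i replicate 2 the Fosl1 change was 1.23. Ccdc85b, on the opposite strand, overlaps the Fosl1 gene and held 1017 and 428 counts over the groups. No strand setting was stated, and whether the transcripts of these genes share sequence was not examined. Fosl2 (chromosome 5, 32135801 to 32157842, plus strand) stood at 17.8, 21.4 and 22.9 CPM against 10.6, 10.8 and 12.2 CPM, a 1.84-fold difference (edgeR adjusted p = 5.2e-07). With the fibroblast covariate the change of Fosl2 was 0.32 and not called (edgeR adjusted p = 0.325).

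The makeup of the Fos family shifted with these unequal rises. Fos made up 64.7%, 64.6% and 61.4% of Fos family counts in the BRD0705/PD03 libraries and 53.5%, 51.0% and 46.2% in the 2i libraries. The share of Fosl2 went down from 26.1 ± 1.76% in 2i to 15.6 ± 3.09% in BRD0705/PD03, while that of Fosb was 23.3 ± 1.96% in 2i and 20.4 ± 1.86% in BRD0705/PD03. The sum over the family was 134 ± 10.3 CPM against 43.0 ± 0.476 CPM.

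Jun and Jund, the partners, moved little. Jun (chromosome 4, 95049034 to 95052222, minus strand), which can activate its own promoter as a dimer with Atf2, stood at 37.0, 36.8 and 35.6 CPM in BRD0705/PD03 and 30.6, 31.5 and 26.3 CPM in 2i. The groups did not overlap, but the rise was only 1.23-fold (edgeR adjusted p = 0.00040), and 59.0% of all genes tested had a larger change in either direction. Against a fold of 1.5 Jun was not called (edgeR adjusted p = 1), nor was it with the fibroblast covariate (0.38, edgeR adjusted p = 0.151). Jund (chromosome 8, 70698949 to 70700616, plus strand), the steadily expressed member that often restrains growth, stood at 28.2, 25.5 and 24.7 CPM against 29.3, 27.9 and 27.5 CPM. Its groups overlapped, and the log2 fold change was -0.11 with a 95% interval of -0.24 to 0.02 (edgeR adjusted p = 0.137). Without BRD0705/PD03 replicate 1 Jund was called lower (-0.17, edgeR adjusted p = 0.0298), and with the fibroblast covariate it turned to 0.20 (edgeR adjusted p = 0.449). The antisense gene Gm11175 overlaps Jund and held 851 and 839 counts over the groups.

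Junb, the third Jun gene, differed from Jun and Jund. It stood at 24.7, 25.8 and 30.7 CPM in BRD0705/PD03 and at 9.55, 9.24 and 8.21 CPM in 2i, a change of 1.59 ± 0.09 (edgeR adjusted p = 1.2e-10). Prdx2 overlaps Junb on the opposite strand and held 22814 and 21018 counts over the groups, and whether their transcripts share sequence was not examined. Junb made up 30.1 ± 3.21% of Jun family counts in BRD0705/PD03 and 13.5 ± 0.259% in 2i. Fos family counts were 1.61, 1.52 and 1.36 times those of Jun, Jund and Junb together in BRD0705/PD03. In 2i that ratio was 0.617, 0.622 and 0.702. On the scale of counts, Fos family RNA was therefore the larger of the pair in each BRD0705/PD03 library and the smaller in each 2i library. Counts also depend on length, which differs here from 1668 bp of annotated exon for Jund to 9680 bp for Fosl2. The order of the families per kilobase was not compared and may differ.

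**Figure D3:**
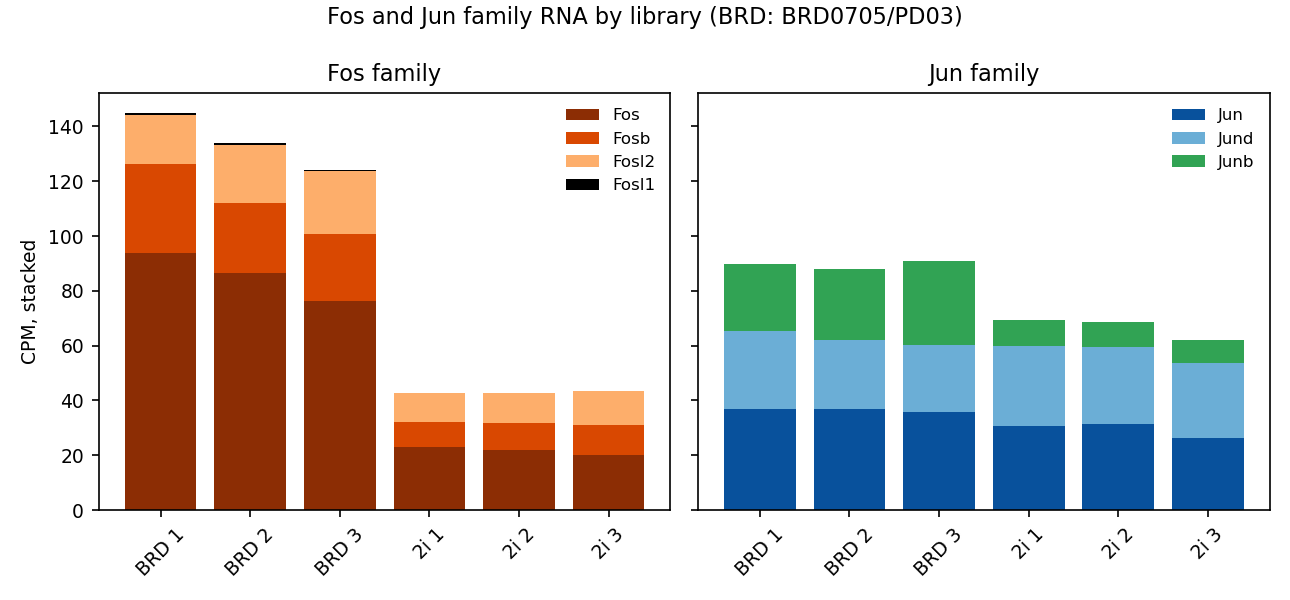
CPM of the Fos family (left) and the Jun family (right), stacked by gene, for each of the 6 libraries (BRD stands for BRD0705/PD03, n = 3 per group). The Fos family total is 134 ± 10.3 against 43.0 ± 0.476 CPM and the Jun family total 89.6 ± 1.51 against 66.7 ± 4.08 CPM.

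The stretches of promoter before the starts of Fos and Egr2, with a large rise, and Jun, with a small one, are shown as examples. Whether motif content bears on the size of a rise was not tested. Each runs from 150 bases before the start to the base before it, 5′ to 3′ on the gene's strand, from RefSeq on GRCm38.p6. They lie at chr12:85473740-85473889 for Fos, chr10:67537719-67537868 for the third listed start of Egr2 and chr4:95052223-95052372 for Jun. The Egr2 stretch lies inside the annotated gene, before a downstream start, and none of the 3 holds annotated exon bases. Capitals mark matches to any of the 8 motifs searched.
Fos: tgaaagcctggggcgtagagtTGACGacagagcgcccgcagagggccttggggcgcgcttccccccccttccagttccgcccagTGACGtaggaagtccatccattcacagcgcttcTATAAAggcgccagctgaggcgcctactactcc
Egr2: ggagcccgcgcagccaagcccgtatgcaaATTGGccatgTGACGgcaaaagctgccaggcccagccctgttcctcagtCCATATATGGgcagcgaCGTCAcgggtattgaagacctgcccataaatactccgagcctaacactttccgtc
Jun: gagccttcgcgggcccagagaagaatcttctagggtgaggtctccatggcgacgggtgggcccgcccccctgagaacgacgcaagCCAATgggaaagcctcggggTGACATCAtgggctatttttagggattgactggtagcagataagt
In Fos the capitals are a pair of CRE half-sites and a TATA box, in Egr2 a CCAAT box, a CArG box and a CRE half-site on each strand, and in Jun a CCAAT box and the ATF/Jun site.

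RefSeq promoters of 300 bases, 250 before the start and 50 from it, were matched for 7 of the 10 genes, with 5 starts for Egr2. Motifs were searched on both strands, as the CArG box by its name, the CRE TGACGTCA, its half-site TGACG, the AP-1 site TGANTCA, the ATF/Jun site TGACATCA, the EGR site GCGNGGGCG, the TATA box TATAAA and CCAAT. The half-site is contained in the full CRE. A CArG box lay in 4 of the 5 Egr2 windows, which overlap in part, and in 1.63% of 32851 promoters in the table. The ATF/Jun site was found in Jun and in 3.62% of all promoters. An EGR site lay 50 bases before the RefSeq start of Fosb and 79 before that of Fosl2, against 5.55% of all promoters. The Fosl2 site lies inside the gene as annotated in GENCODE M21, in a stretch that holds annotated exon bases. The half-site was found for Fos, Fosb and Egr2, against 20.8% of all, and a TATA box for Fos, against 13.6%. A match describes letters and is not a bound site. Sequence outside these 300 bases was not searched. The lack of a match, as of a CArG box for Fos, thus holds for that window alone.

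Ier2 and Ier3 rose modestly, Ier2 from the highest 2i level of the 10 genes. Ier2 (chromosome 8, 84661331 to 84662852, minus strand), an early-induced nuclear protein gene, stood at 64.7, 61.7 and 70.0 CPM against 48.4, 47.9 and 42.4 CPM. The groups did not overlap, and the difference was 1.42-fold (edgeR adjusted p = 1.2e-06). Ier3 (chromosome 17, 35821684 to 35822923, plus strand), a stress-responsive gene that affects cell survival and ERK signalling, stood at 18.2, 19.7 and 21.3 CPM against 12.1, 12.9 and 12.0 CPM, a 1.60-fold difference (edgeR adjusted p = 3.2e-07). Against a fold of 1.5 neither was called, with edgeR adjusted p = 1 for Ier2 and 0.147 for Ier3. With the fibroblast covariate both changes were 0.29 and neither was called (edgeR adjusted p = 0.207 and 0.319).

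The order of levels changed between the media. Per kilobase of annotated exon, in CPM per kb, Ier2 was highest in BRD0705/PD03 at 43.0 ± 2.78, then Fos at 36.3 ± 3.73, Ier3 at 17.5 ± 1.37, Jund at 15.7 ± 1.1 and Jun at 11.4 ± 0.233. Fosb followed at 4.41 ± 0.709, Fosl2 at 2.14 ± 0.27, Egr1 at 1.81 ± 0.18, Egr2 at 1.77 ± 0.234 and Fosl1 at 0.303 ± 0.0432. In that order the ranges overlapped between Ier3 and Jund, Fosl2 and Egr1, and Egr1 and Egr2. In 2i, Ier2 was again highest at 30.4 ± 2.18, and Fos, at 9.18 ± 0.594, lay below Jund at 16.9 ± 0.572 and Ier3 at 10.9 ± 0.452 and overlapped Jun at 9.24 ± 0.869. The lower part of the order was the same in 2i, with Fosb at 1.60, Fosl2 at 1.16, Egr1 at 0.402, Egr2 at 0.397 and Fosl1 at 0.0973, and only Egr1 and Egr2 overlapped there. The place of Jund depends on its length, 1668 bp of exon in GENCODE M21 against a span of 2878 bp in RefSeq, with which it would stand at 9.07 and 9.81 CPM per kb.

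The genes share a compact form that the choice of symbols did not use. Their median span was 4273 bp, and 9 of 10 spanned under 10000 bp, as did 25.2% of the 14804 tested protein-coding genes. Jun, Jund and Ier2 have 1 exon in the annotation. Among the 3727 tested protein-coding genes under that span, 29.9% were called higher and 32.8% lower, with a median log2 fold change of -0.02.

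Libraries of 1 group did not rank alike for all genes. BRD0705/PD03 replicate 1 had the highest Fos, Fosb, Fosl1, Jun and Jund of its group and the lowest Egr1, Egr2, Fosl2 and Ier3. The summed level of Col1a1, Col1a2, Col3a1, Dcn and Lum was 632 CPM in that library, and 839 and 945 CPM in replicates 2 and 3, while the 2i libraries held 368 to 384 CPM. The fibroblast genes were thus lowest in the library with the highest Fos, Fosb, Fosl1, Jun and Jund and the lowest Egr1, Egr2, Fosl2 and Ier3. This rests on 1 library, and a link within the group was not tested. The SD of log2 CPM in BRD0705/PD03 was 0.03 for Jun and between 0.09 and 0.22 for the other 9 genes. The gap between the lowest BRD0705/PD03 and the highest 2i library was 1.75 for Egr1, 1.74 for Fos, 1.53 for Egr2 and 1.17 for Fosb on the log2 scale.

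**Figure D4:**
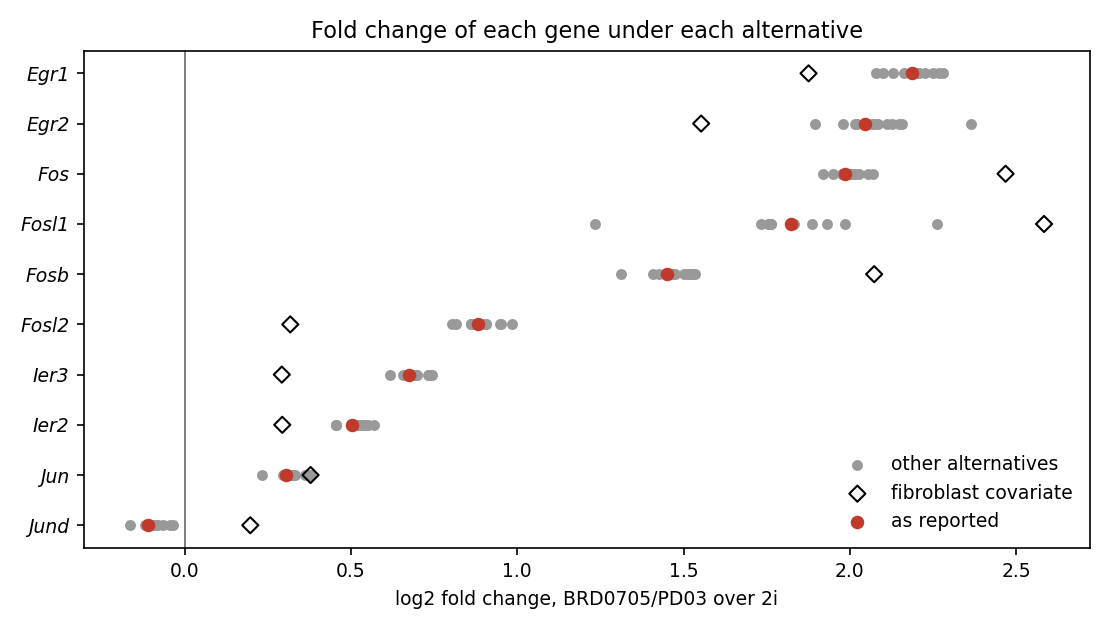
Log2 fold change of BRD0705/PD03 over 2i for each gene, as reported (red), with the fibroblast covariate (diamonds) and under the other alternatives (grey). With the covariate Jund lies above 0 at 0.20, while every other point of Jund is below 0. Egr1, Egr2, Fos, Fosb and Fosl1 stay above 1, but Fosl1 was not called with the covariate.

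Genes with the most similar profile were sought among 11449 genes by the root mean square distance of centred log2 CPM over the 6 libraries. For Egr1 these were Irs1, an adaptor of the insulin receptor (distance 0.05), the phosphatase gene Ppm1h (0.05) and Dbn1, an actin-binding protein gene (0.07). Irs1 stood at 8.81 ± 0.631 against 1.95 ± 0.299 CPM. The nearest to Fos were Hes6, a bHLH factor of neural cells (0.04), the sulfotransferase gene Chst15 (0.07) and the phospholipase gene Plcg2 (0.07). Hes6 stood at 34.9 ± 3.09 against 9.04 ± 0.353 CPM. For Jun they were the ribosomal protein gene Rpl13a, the MHC gene H2-T10 and the histone variant gene H2az2, each at a distance of 0.02. With 6 libraries in 2 groups, such a distance mostly reflects an equal difference between the groups.

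Other immediate early genes divided. Of 28 tested genes outside the 10, 14 were higher and 7 lower in BRD0705/PD03, with a median of 0.12. Zfp36l2, which targets AU-rich RNAs for decay, stood at 39.3 ± 0.711 against 15.5 ± 0.0741 CPM, and the nuclear receptor gene Nr4a1 at 22.3 ± 1.02 against 8.70 ± 0.136 CPM. Klf6, a zinc finger factor, rose by 0.86 and Trib1, a pseudokinase that binds MEK, by 1.00. Sgk1, a kinase gene, had 231 ± 16.2 and 223 ± 10.5 CPM and was not called. Among genes chosen after their values were seen, Ier5 rose by 1.39. Npas4, a neuronal activity factor chosen likewise, was below the filter and not tested. It had 29 counts against 0 over the groups. Against an assumed floor of 3 counts over the 2i group that is at least 8.86-fold, a bound without an interval. In the opposite direction, also chosen after their values were seen, Dusp1, an early phosphatase that acts on MAP kinases, fell by 0.75, the matricellular gene Ccn1 by 0.69 and Klf10 by 0.58. Gadd45b, a stress-induced gene, fell by 1.13 and Arc, a synaptic immediate early gene, by 0.87. As these rising and falling genes were chosen after their values were seen, their direction carries no weight for the list as a whole. The shares over all genes tested, 30.1% higher and 31.4% lower, stand beside the counts of this list and of those below.

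Other bZIP genes that can pair with Fos or Jun proteins were 5 higher and 5 lower of 12 tested, with a median of -0.06. Jdp2, a repressor that dimerizes with Jun, stood at 9.46 ± 0.523 against 21.3 ± 0.807 CPM, and Atf7 fell by 0.49 ± 0.07. The scarce Batf2 stood at 0.0714 ± 0.0217 against 0.482 ± 0.153 CPM and passed the filter on low counts only through the 2i libraries, so its lower call carries no weight. Atf2, the partner of Jun on its own promoter, stood at 76.7 ± 2.44 against 76.9 ± 0.694 CPM and did not pass the test.

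Among SRF, its cofactors and CREB with its coactivators, 5 of 9 tested were higher and 1 lower, with a median of 0.17. Srf stood at 55.5 ± 2.22 against 43.0 ± 1.13 CPM (0.37 ± 0.05, edgeR adjusted p = 2.7e-06), Creb1, the CRE-binding factor, rose by 0.70 and the coactivator gene Ep300 by 0.30. Elk1, a ternary complex factor, fell to 20.04 ± 0.494 from 43.5 ± 2.58 CPM, and Elk4, another such factor, did not pass the test (0.18, edgeR adjusted p = 0.0565). Of 17 genes from Ras to ERK and its effector kinases, 6 were higher and 9 lower, with a median of -0.12. Mapk3, which encodes ERK1, stood at 31.2 ± 2.79 against 13.2 ± 0.0921 CPM. Rps6ka5, which encodes MSK1, rose by 1.16, while Rps6ka3 fell by 1.22 and Araf by 0.61. Rps6ka2 differed by 0.10 and did not pass the test.

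JNK and p38 pathway genes, whose kinases act on Jun and Atf2, were 5 higher and 4 lower of 11, with a median of 0.08. The p38 genes Mapk12 and Mapk11 rose by 2.13 and 1.57, Map2k6 and Map2k3, which activate p38, fell by 1.42 and 0.63, and Mapk14, the main p38 gene, differed by -0.02 and was not called. Of 9 genes that control decay of Fos or Jun RNA or protein, 3 were higher and 1 lower, with a median of 0.02. The 3 were Zfp36, Zfp36l1 and Zfp36l2, which are also in the immediate early list, with Zfp36 at 12.4 ± 1.44 against 4.42 ± 0.0691 CPM and Zfp36l1 changed by 0.52. Khsrp, another AU-rich element binder, fell by 0.13, and Elavl1, which stabilizes such RNAs, did not pass the test (-0.06).

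Delayed ERK outputs were 6 higher and 4 lower of 11, with a median of 0.32. Dusp6 and Spry1, feedback inhibitors, rose by 1.14 and 0.58, the Ets factor genes Etv4 and Etv1 fell by 5.64 and 1.14, and Dusp4 differed by 0.07 without passing the test. Of 18 genes long described as AP-1 targets, 12 were higher and 3 lower, with a median of 0.70. Plaur, the urokinase receptor gene, stood at 7.83 ± 0.537 against 1.63 ± 0.125 CPM, and Ccnd1, a G1 cyclin, rose by 0.79. Vegfa and Spp1 fell by 0.72 and 0.46, and the metallothionein gene Mt2 differed by -0.07 without passing the test. Fibroblast markers were higher in the same libraries (18 of 20, median 1.14), and their part in the target list was not tested. Heat shock genes, which respond to handling, were 5 higher and 3 lower of 11, with a median of -0.0043 and a summed level of 10933 to 11560 CPM in BRD0705/PD03 and 11578 to 12283 CPM in 2i. Among them Hsph1 and Hspb1 fell by 0.72 and 0.78, Bag3 and Hspa1b rose by 0.83 and 0.56, and Hsp90aa1, at 6212 ± 266 and 6230 ± 137 CPM, was not called.

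**Figure D5:**
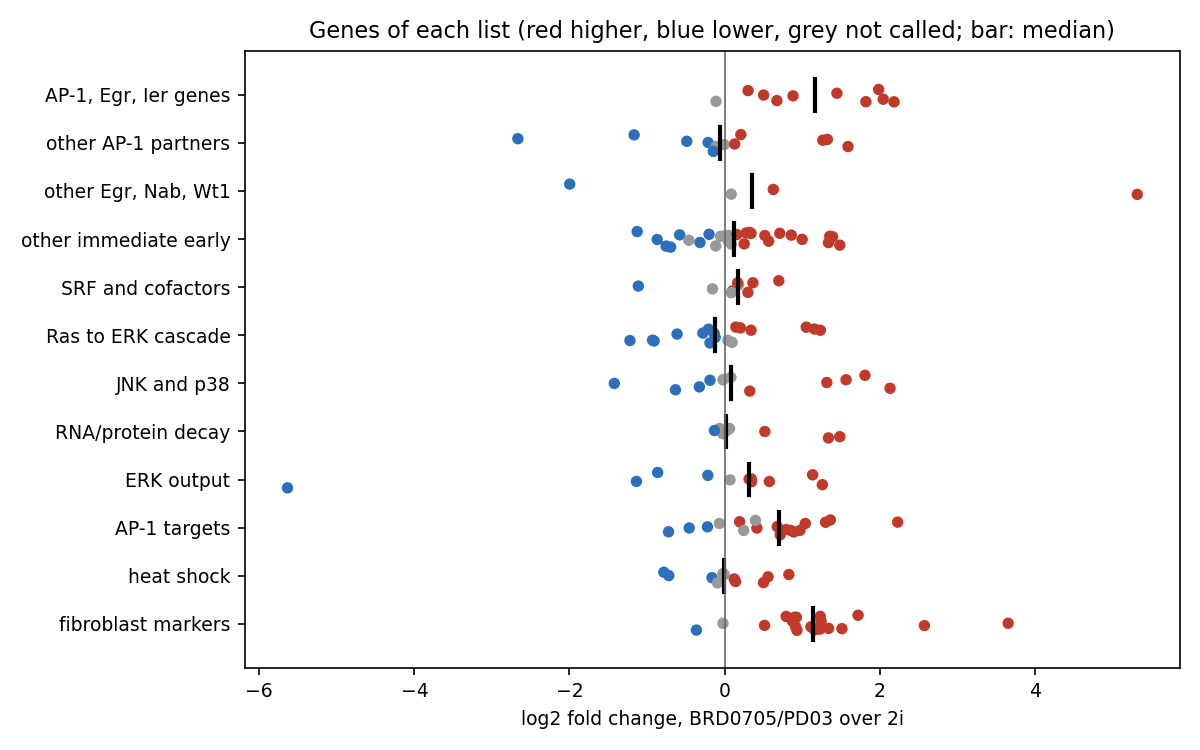
Log2 fold change of BRD0705/PD03 over 2i for each tested gene of the 10 AP-1, Egr and Ier genes and of 11 other lists, with 1 point per gene, red called higher, blue called lower, grey not called, and a black bar at the list median. The median of the 10 genes is 1.17 and that of other immediate early genes 0.12, and the fibroblast markers have a median of 1.14.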

How the data were processed

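RNA-seq libraries of 6 mouse ESC samples, 3 per medium, were compared. The authors deposited 1 table per library with whole numbers for each gene symbol. Per the submitters' processing notes, Salmon and the mm10 build were used, so the deposited values were taken as estimated counts, rounded and not scaled between libraries. No Salmon version, annotation or strand setting was found: not given in the sources used here. Titles gave each sample's group and replicate number. No label mentions separate cultures, and every p-value then measures just the spread among these samples, which may be technical. No pair of replicates agreed within sampling noise, with chi-square per degree of freedom of 2.77 to 9.84.

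The quasi-likelihood test of edgeR (version 4.0.16, under R 4.3.3) was run two-sided on every gene that filterByExpr kept at a minimum count of 10. TMM scaling and robust estimation were used, and the model held medium alone. Benjamini-Hochberg adjustment covered all 20422 genes, and calls were made at 0.05. CPM use effective library totals, and standard errors are the log2 fold change over the square root of F. A fold of at least 2 was counted on the fitted change. Coordinates and exon lengths are from GENCODE M21 on GRCm38, and promoters from RefSeq on GRCm38.p6, both matched by symbol. The steps were tested on simulated counts. The 10 genes and the 13 other lists were chosen with earlier results of these data known. In 10 of those lists, the 4 called genes with the smallest p and the most abundant gene that was not called were named, and of the marker lists Col1a1, Col3a1, Dcn, Pou5f1, Sox2, Gata6 and Sox17. For Egr1, Fos and Jun the 3 nearest profiles among genes averaging 5 CPM or more were named. Other genes are said to be chosen after their values were seen. Ratios with 1 to 3 counts in a group carry exact 95% intervals. Alternatives comprised DESeq2 1.42.0, scaling by median ratios or upper quartiles, no or a stricter low-count filter, testing against a fold of 1.5, thinning, the replicate number as a block, a fibroblast gene covariate and leaving out each library.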

Additional observations from a re-analysis of the deposited data

How the results depend on the processing

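Egr1, Egr2, Fos and Fosb were called higher under all 15 alternatives, with changes of 1.88 to 2.28, 1.55 to 2.36, 1.92 to 2.47 and 1.31 to 2.07 on the log2 scale. Leaving out any 1 library gave 11718 to 12570 called genes and 9 to 10 called members of the 10. Against a fold of 1.5, 5094 genes were called (2498 higher, 2596 lower) and 6 of the 10. With the fibroblast covariate 5313 genes were called (2357 higher, 2956 lower) and 4 of the 10. Jund reversed there to 0.20, and Fosl1 was not called (2.58, edgeR adjusted p = 0.0876). The group explained 88.7% of the variance of that covariate, so the fit has little to separate them with. With the replicate block 12435 genes and 9 of the 10 were called, and the same-numbered libraries correlated at -0.06, 0.08 and -0.07 in their deviations, so the numbers were not taken as pairs. A mean of at least 1 CPM and thinning each removed Fosl1 before the test. Low counts limit Fosl1 and the 2i values of Egr2 most.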
